A study of Mus musculus with 10 samples.

Results

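The regions described were called after immunoprecipitation of the homeodomain protein Dlx2 from mouse cortex at postnatal day 3 (P3), and also in the olfactory bulb. They were chosen as the regions of the P3 cortex list on chromosomes 1 to 19 and X that overlapped, by at least 1 bp, a region of the olfactory bulb list at embryonic day 16 (E16) or at P3. The rule took 351 of 2116 regions, which is 16.6% of the list on these chromosomes. It split them by overlap with the E16 basal ganglia list into 245 regions found there and 106 not found there. Over the whole P3 cortex list the basal ganglia overlap was 30.3%, beside 69.8% of the regions shared with bulb. With every list held to the length of the shortest, 143 regions were shared with bulb and 30 of them (20.98%) lay in the basal ganglia list, beside 6.13% of the P3 cortex regions so kept. These overlaps chose and divided the regions and are given as a description.

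Dlx2 is one of a family of transcription factors made by GABAergic neurons and their precursors in the ventral forebrain, where it is needed for their differentiation and migration. Precursors born in the ganglionic eminences, the embryonic basal ganglia, travel from there into the cortex and the olfactory bulb and become interneurons. The family recognises DNA through a homeodomain, whose core target is the letters TAATTA, and much of its binding lies at enhancers away from gene starts.

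The data are chromatin immunoprecipitation and sequencing (ChIP-seq) of Dlx2 from mouse brain tissue, with 1 library from each of the E16 basal ganglia, E16 cortex, E16 olfactory bulb, P3 olfactory bulb and P3 cortex. All 5 shared a protocol of 1.5% formaldehyde, chromatin fragments of 300 to 1000 bp, 5 µg of anti-Dlx2 antibody and single-end reads of 50 nucleotides. Genotype, strain, sex, number of animals and dissection limits were not given in the sources used here, and the 5 matching inputs and the IgG control reactions were not analysed here. With 1 library a group there is no replicate error, so shares carry exact (Clopper-Pearson) 95% intervals that cover counting error only, and no p-value is given. Where a class of regions or windows had a count of 0 under the rule as stated, the share it allows is given. It is 3 counts of the total, followed by the upper end of the exact interval.

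On chromosomes 1 to 19 and X the lists held 2116 regions in P3 cortex, 1665 in E16 bulb, 732 in P3 bulb, 14732 in E16 basal ganglia and 6307 in E16 cortex. Read depth is unknown, so list length and the strength of a region cannot be compared between libraries, and the tissue labels could not be checked against expressed markers. The deposited names of regions carry a mark of duplicate read removal in every list except P3 cortex, where 0 of 2139 names have it. The E16 cortex names all have the mark, so between the cortex lists this handling differs together with age. No group of 1 tissue and age was profiled both ways, so handling and group cannot be told apart.

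The 106 regions outside the basal ganglia list and the 245 inside it differed in how often they overlapped a promoter. The shares of those promoters with each motif had intervals that overlapped between the classes. The stretches printed here are the 250 bases before annotated starts of genes whose promoter window, from 250 bases before to 50 bases after a start, is overlapped by a shared region. They come from RefSeq, build GRCm38.p6, and are written 5′ to 3′ on the strand of the gene. The first set was picked, after the sequences had been searched, because it shows repeated CCAAT boxes. Capitals mark CCAAT and its reverse complement ATTGG. Arntl encodes a core transcription factor of the circadian clock, Hsp90b1 a chaperone of the endoplasmic reticulum and Arrdc4 an arrestin-domain protein. Those 3 regions lay outside the basal ganglia list, and the region at the noncoding gene 3110056K07Rik lay inside it.
Arntl, chr7:113207215-113207464, plus strand: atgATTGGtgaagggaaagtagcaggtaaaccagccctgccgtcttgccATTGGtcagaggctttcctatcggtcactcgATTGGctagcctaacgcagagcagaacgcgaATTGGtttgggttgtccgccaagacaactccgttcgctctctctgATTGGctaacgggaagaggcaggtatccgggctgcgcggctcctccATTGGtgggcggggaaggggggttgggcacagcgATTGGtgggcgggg
Hsp90b1, chr10:86705445-86705694, minus strand: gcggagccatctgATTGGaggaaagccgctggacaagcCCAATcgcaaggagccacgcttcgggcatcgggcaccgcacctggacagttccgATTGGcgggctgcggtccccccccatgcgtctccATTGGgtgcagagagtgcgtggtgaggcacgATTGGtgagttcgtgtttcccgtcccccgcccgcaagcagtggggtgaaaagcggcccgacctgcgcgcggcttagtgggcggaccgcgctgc
Arrdc4, chr7:68749239-68749488, minus strand: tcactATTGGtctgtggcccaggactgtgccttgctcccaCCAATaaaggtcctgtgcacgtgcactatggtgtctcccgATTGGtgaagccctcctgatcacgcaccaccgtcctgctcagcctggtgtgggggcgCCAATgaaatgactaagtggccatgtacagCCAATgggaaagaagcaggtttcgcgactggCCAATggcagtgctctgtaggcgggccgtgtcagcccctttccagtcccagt
3110056K07Rik, chr12:71015824-71016073, minus strand: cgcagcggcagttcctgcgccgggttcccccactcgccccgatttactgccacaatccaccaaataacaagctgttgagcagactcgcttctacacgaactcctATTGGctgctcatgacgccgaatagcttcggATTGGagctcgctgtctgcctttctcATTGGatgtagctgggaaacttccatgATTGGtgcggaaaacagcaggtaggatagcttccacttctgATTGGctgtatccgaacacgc

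The Arntl stretch held 7 CCAAT boxes on either strand, between 247 and 14 bases before the start, and the P3 cortex summit lay 151 bases before it. The Hsp90b1 stretch held 5 with its summit 172 bases before the start, the Arrdc4 stretch 6 with its summit at 106 bases, and the 3110056K07Rik stretch 5 with its summit at 14 bases. The CCAAT box is known as the target of the trimeric factor NF-Y and is common in promoters.

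The second set shows promoter stretches of regions inside the basal ganglia list that hold the Dlx-type core, with TAATTA in capitals. Dlx6os1 is the noncoding transcript that runs through the Dlx5 and Dlx6 locus and past its enhancers. Vldlr encodes a reelin receptor used in neuronal migration.
Dlx6os1, chr6:6861684-6861933, minus strand: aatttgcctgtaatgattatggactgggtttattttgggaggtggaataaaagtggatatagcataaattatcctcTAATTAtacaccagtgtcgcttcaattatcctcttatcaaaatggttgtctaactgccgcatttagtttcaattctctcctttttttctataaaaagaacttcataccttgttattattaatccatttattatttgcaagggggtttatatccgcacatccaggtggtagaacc
Vldlr, chr19:27216234-27216483, plus strand: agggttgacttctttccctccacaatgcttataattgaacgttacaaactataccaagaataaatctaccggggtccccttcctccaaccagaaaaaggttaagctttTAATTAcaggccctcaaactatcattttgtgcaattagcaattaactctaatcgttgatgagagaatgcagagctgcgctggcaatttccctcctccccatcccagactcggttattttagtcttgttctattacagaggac
Dlx6os1, chr6:6869534-6869783, minus strand: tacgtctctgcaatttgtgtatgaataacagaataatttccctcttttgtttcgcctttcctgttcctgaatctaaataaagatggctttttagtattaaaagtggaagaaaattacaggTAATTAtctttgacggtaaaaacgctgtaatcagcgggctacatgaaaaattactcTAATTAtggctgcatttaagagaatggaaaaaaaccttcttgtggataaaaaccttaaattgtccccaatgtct

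The Dlx6os1 stretch that ends at 6861933 held 1 TAATTA, 174 bases before the start, and the Vldlr stretch held 1, 142 bases before it. The other Dlx6os1 stretch held 2, at 130 and 74 bases. A match of letters is a description and not a measured contact.

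Windows with several CCAAT boxes made up a larger share under regions shared with bulb than under other P3 cortex regions. A promoter window was overlapped by 9.69% of all P3 cortex regions, by 25 of the 106 regions outside the basal ganglia list (23.6%, interval 15.9 to 32.8) and by 24 of the 245 inside it (9.80%, 6.38 to 14.2). Of the P3 cortex regions not shared with bulb, 156 of 1765 did so (8.84%). Each region was then given 1 window, that of the nearest start, and CCAAT was searched on both strands in its 300 bases. At least 1 CCAAT stood in 19 of the 25 windows outside the basal ganglia list and in 17 of the 24 inside it, against 37.6% of all 32619 promoter windows. P3 cortex regions not shared with bulb had 90 of 156 (57.7%, 49.5 to 65.6), an interval that overlaps that of the 49 windows of shared regions (73.5%, 58.9 to 85.1). At least 3 stood in 15 of 25 (60.0%, 38.7 to 78.9) and in 10 of 24 (41.7%, 22.1 to 63.4). The same count was 34 of 156 for P3 cortex regions not shared with bulb (21.8%, 15.6 to 29.1) and 3.37% of all windows. The threshold of 3 was chosen after the sequences were seen.

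Neighbouring CCAAT boxes within a window stood 28 to 34 bases apart in 21 of 92 gaps in windows of the shared regions (22.8%), and in 666 of 5397 gaps in all windows (12.3%). The range of 28 to 34 bases was not among the planned measures. Of the windows of shared regions, 38.8% held 4 or more boxes, against 12.8% of those of P3 cortex regions not shared with bulb and 1.07% of all windows. The part of box number in the spacing was not tested. Gaps within 1 window are not independent, and gaps for P3 cortex regions not shared with bulb were not counted. The Sp-type core GGGCGG was in 15 of 25 and 10 of 24 windows, beside 35.9% of all windows and 96 of 156 windows of P3 cortex regions not shared with bulb (61.5%). Median GC content was 60.7% and 54.8% in the windows outside and inside the basal ganglia list, 59.3% in those of the other P3 cortex regions and 53.0% in all windows. GC content was above that of all windows in each of these classes, and its part in the CCAAT counts was not tested. Summits stood a median of 133 bases before the start in the windows outside the basal ganglia list and 87.5 bases before it in those inside.

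**Figure D1:**
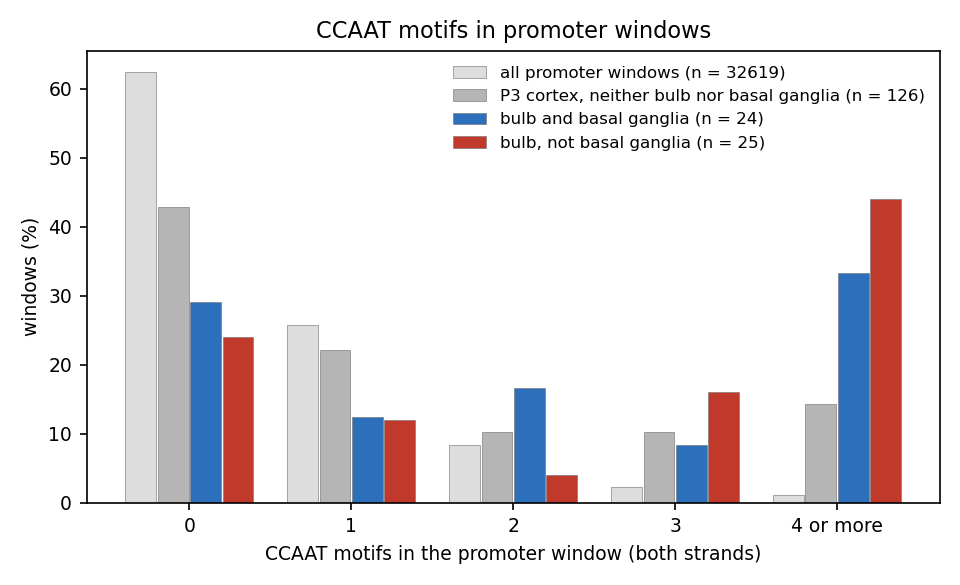
Share of promoter windows (y axis, percent) by number of CCAAT boxes in the window on both strands (x axis), for windows of regions shared with bulb outside (n = 25) and inside (n = 24) the E16 basal ganglia list, of P3 cortex regions in neither (n = 126) and for all 32619 windows. All windows fall off from 0 boxes, while the windows of the shared regions have a tall bar at 4 or more. The bar there is 14.3% for P3 cortex regions in neither.

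Counts of TAATTA went the other way, with intervals that overlap. It was in 0 of the 25 windows outside the basal ganglia list, which allows a share of up to 12% (exact 13.7%), and in 5 of the 24 inside it (20.8%, 7.13 to 42.2). Those 5 include both printed windows of Dlx6os1, which are of 1 locus, while the interval treats windows as separate. They also include windows of Gm32703 and Gm39220, where the summit lay 423 and 203 bases after the start, outside the window. All promoter windows held it in 5.25%. The P3 cortex regions in the basal ganglia list but not in bulb had it in 6 of 30 windows (20%), and those in neither in 6 of 126 (4.76%). The other cores were searched on both strands as well. The POU-type core ATGCAAA was in 5 of 24 windows inside the basal ganglia list and in 1 of 25 outside it. The E-box CACGTG was in 2 of all 49 windows of shared regions, and the E-box CAGATG in 4. The AP-1 core TGACTCA was in 0 of them, which allows up to 6.12% (exact 7.25%). The Zfp143-type core ACTACAA was in 2 of 49 (4.08%, 0.498 to 14.0) and in 22 of 156 windows of P3 cortex regions not shared with bulb (14.1%, 9.05 to 20.5), beside 3.26% of all windows. Windows exist here only for protein-coding and long noncoding genes, so the sequence under most shared regions was not read.

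The genes named here from the 49 windows were picked after the windows had been searched. Outside the basal ganglia list were Sel1l (4 boxes, fold enrichment 3.46 in P3 cortex), a component of protein degradation at the endoplasmic reticulum, Stip1 (4 boxes, 3.004), a co-chaperone, and Kpnb1 (3 boxes, 3.03), a nuclear import receptor. Sp2 (6 boxes, 3.42), a zinc-finger transcription factor, Cnot3 (4 boxes, 3.65) of the deadenylase complex and Dolpp1 (4 boxes, 8.63) belong there as well. Nfya, which encodes a subunit of the CCAAT-binding factor NF-Y, had a region with fold enrichment 3.72 and 0 boxes in its window. Inside the basal ganglia list were Eif2ak3 (6 boxes, 5.18), a kinase of the unfolded protein response, Ska2 (5 boxes, 6.85) of the kinetochore, H3f3b (4 boxes, 4.61), a histone gene, and Gsk3b (4 boxes, 3.31), a kinase of Wnt signalling. Fold enrichment, the authors' ratio of summit signal to local background, describes a region within its own list.

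Counted in each list on its own, at least 3 CCAAT boxes were in 31 of 52 promoter windows of the P3 bulb list (59.6%, 45.1 to 73.0) and 20 of 78 of the E16 bulb list (25.6%, 16.4 to 36.8). The P3 cortex list had 59 of 205 (28.8%, 22.7 to 35.5). The E16 basal ganglia list had 54 of 884 (6.11%, 4.62 to 7.90) and the E16 cortex list 13 of 328 (3.96%, 2.13 to 6.68). The last share was near that of all windows.

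The E16 cortex list was not used by the rule, and the classes differed in it. Over the whole P3 cortex list, 5.15% of regions were also in E16 cortex. Of the 351 shared regions 66 did (18.8%, 14.9 to 23.3), and all 66 were among the 245 inside the basal ganglia list (26.9%, 21.5 to 33.0). None of the 106 outside it did, which allows a share of up to 2.83% (exact 3.42%). Among P3 cortex regions not shared with bulb the count was 38 of 397 inside the basal ganglia list (9.57%, 6.86 to 12.9) and 5 of 1368 outside it (0.365%). Within the basal ganglia list, the share in E16 cortex was thus higher for regions that were also in bulb, and the 2 intervals do not meet. This difference between the classes depended on the lists used. With every list held to the length of the shortest, 1 of 30 regions inside the basal ganglia list (3.33%, 0.0844 to 17.2) and 0 of 113 outside it were in E16 cortex, so that no difference was left beyond counting error. Without regions wider than 1 kb in any list the direction turned, with 35 of 151 outside (23.2%, 16.7 to 30.7) and 25 of 173 inside (14.5%, 9.58 to 20.6). That setting by construction drops wide basal ganglia regions and moves their partners outside that list. With summits within 200 bp in place of overlap the counts were 4 of 123 outside and 50 of 206 inside.

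From the side of the bulb, the 351 regions met 301 of 1665 E16 bulb regions (18.1%, 16.3 to 20.01) and 186 of 732 P3 bulb regions (25.4%, 22.3 to 28.7). By bulb age, 136 regions were in both bulb lists, 165 in the E16 list alone and 50 in the P3 list alone. Regions inside the basal ganglia list were in the E16 bulb list in 227 of 245 cases (92.7%, 88.6 to 95.6) and in the P3 bulb list in 114 (46.5%, 40.2 to 53.0). Those outside were in the E16 bulb list in 74 of 106 cases (69.8%, 60.1 to 78.4) and in the P3 bulb list in 72 (67.9%, 58.2 to 76.7). These overlaps belong to the rule and the bulb lists differ in length, so nothing is read from them.

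Summit distances were taken within overlapping regions, using the one with the highest −log10 q where several overlapped. The P3 cortex summit lay a median of 49 bp from the E16 bulb summit, within 100 bp at 228 of 301 regions. From the P3 bulb summit it lay 45.5 bp, within 100 bp at 144 of 186. The median distance to the basal ganglia summit was 63 bp, and also 63 bp for P3 cortex regions in that list but not in bulb. The rule required overlap and the median width was 455 bp, so short distances follow in part from the rule. They are a description. Just inside the rule were regions at Gm34304, Tcf4 and Hspa4, which overlapped a bulb region by 50, 114 and 117 bp and had fold enrichments of 3.31, 3.75 and 4.36. Just outside were regions at Chd7, Siah1a and Dlx6os1, which missed the nearest bulb region by 78, 211 and 220 bp and had fold enrichments of 3.97, 4.15 and 3.21. The 106 regions outside the basal ganglia list had a median gap of 58844.5 bp to its nearest region, beside 71149 bp for P3 cortex regions in neither list, and 6 of the 106 had one within 1 kb.

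Strength in P3 cortex also separated the classes. Ranked by the authors' −log10 q, the 10 strongest P3 cortex regions included 9 shared with bulb and the 20 strongest 18, all of them outside the basal ganglia list. The 100 strongest included 57, of which 37 lay outside it and 20 inside. Of the 212 strongest regions, 89 were shared with bulb (41.98%), and of the 212 weakest 19 (8.96%). Outside the basal ganglia list the median fold enrichment was 6.47 (quartiles 3.88 and 15.6, highest 49.1), inside it 4.68 (3.97 and 5.96, highest 15.5), and 4.36 in P3 cortex regions not shared with bulb. The rule asks for a call in a second library, so strength is not independent of it and these values are a description. Median width was 600.5 bp outside and 421 bp inside the basal ganglia list, and 19 of 106 (17.9%) against 7 of 245 (2.86%) were wider than 1 kb.

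**Figure D2:**
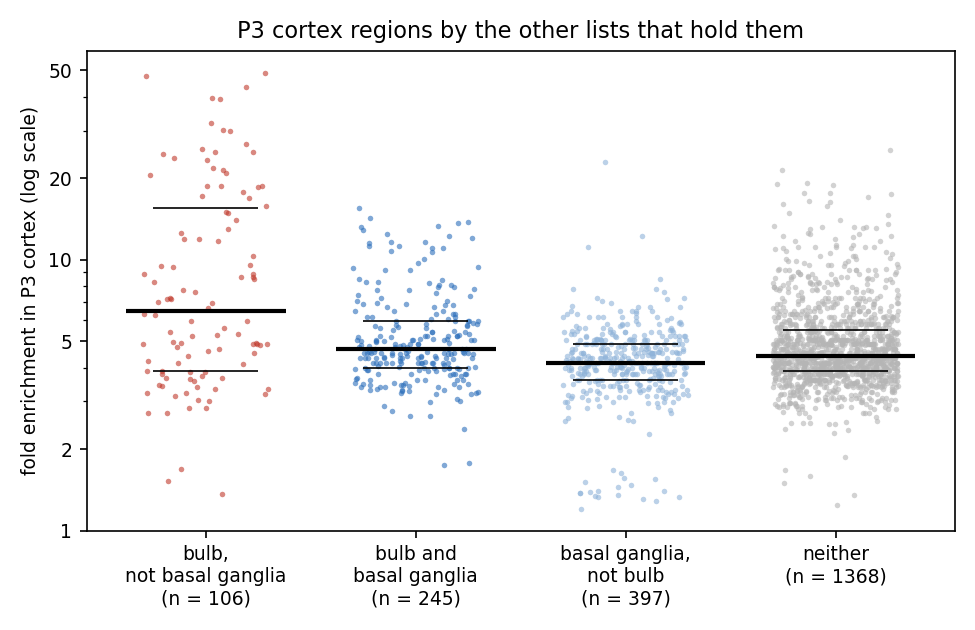
Fold enrichment of each P3 cortex region (y axis, log scale; points), by the other lists that hold it (x axis); the thick bar is the median and the thin bars are the quartiles. Regions shared with bulb but not basal ganglia reach 49.1, while those shared with both stop at 15.5.

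**Figure D3:**
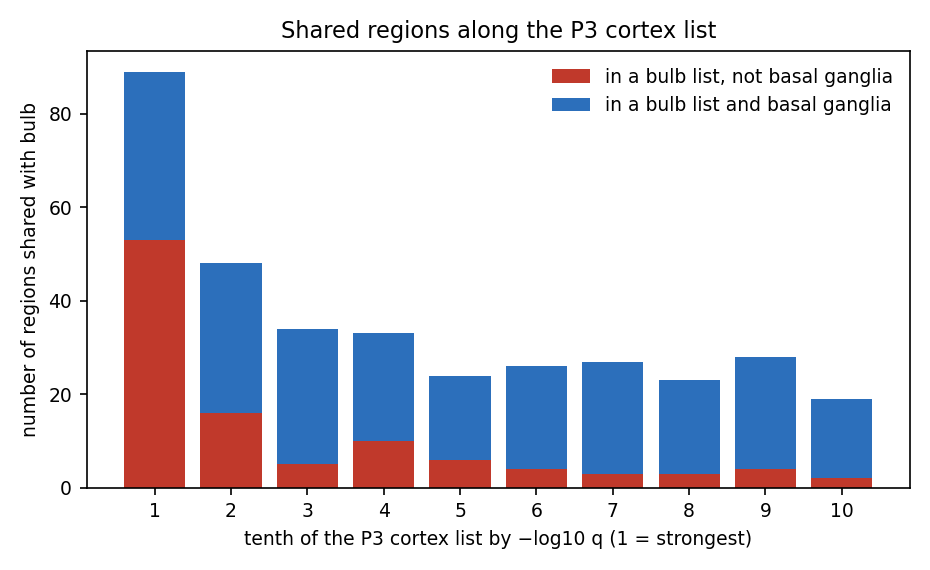
Number of regions shared with bulb (y axis) in each of 10 equal parts of the P3 cortex list by −log10 q (x axis, 1 is the strongest), stacked by whether the E16 basal ganglia list holds them. The strongest part holds 53 outside and 36 inside the basal ganglia list, the weakest 2 and 17.

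The strongest regions outside the basal ganglia list were 990 to 1869 bp wide in the leading 5, at genes of differing roles. The region 42.1 kb outside Sema6a, a transmembrane semaphorin of axon guidance, had a fold enrichment of 47.5 in P3 cortex, 20.5 in E16 bulb and 11.8 in P3 bulb. The region within Smad2, a signal transducer of the TGF-beta and activin pathways, had 49.1 in P3 cortex, 12.1 in E16 bulb and 9.91 in P3 bulb. The region within Grip1 (chr10:119952736-119953941), which encodes a scaffold protein of AMPA receptor synapses, had 43.5, 12.3 and 11.6 in the same order. The region within Slc38a9 (chr13:112707148-112708458), a lysosomal amino acid transporter, had 39.7, 10.7 and 11.6. The region 9.38 kb outside Sowahb (chr5:93053798-93054787) had 39.3, 9.41 and 13.3. These 5 led the P3 cortex list and each was called in both bulb lists. None was called in the basal ganglia or E16 cortex lists, and the nearest basal ganglia region was 67596 to 133380 bp away.

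The next by −log10 q lay within Gm34664 (23.7 in P3 cortex), Kcnk1, a potassium channel gene (31.9), Zbtb4, a zinc-finger gene (30.1), D7Ertd443e (29.8) and Cdk14, a cyclin-dependent kinase gene (24.5). Of these, the Zbtb4 region had 9.61 in E16 bulb and 7.49 in P3 bulb, and the Gm34664 region was called at E16 only, with 4.91. Cenpo (14.9), a centromere gene with the widest of these regions at 3028 bp, Gm51582 (23.4), Gm14064 (26.7), Siah1a (21.5), a ubiquitin ligase gene, and Gm2412 (21.0), whose region lay 142 bp from the snRNA gene Gm26444, completed the 15 strongest. The Siah1a region had 9.19 and 9.43 in the E16 and P3 bulb, and a weaker P3 cortex region beside it was the one that missed the rule by 211 bp.

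The order of strength was compared between tissues within each class. Across regions outside the basal ganglia list, Spearman's rho between P3 cortex and bulb fold enrichment was 0.69 for E16 bulb (n = 74) and 0.65 for P3 bulb (n = 72). Inside the basal ganglia list it was 0.17 (n = 227) and 0.40 (n = 114), and −0.03 between P3 cortex and basal ganglia (n = 245). The last value pools groups at different levels. It was 0.20 without regions at short RNA genes (n = 218) and 0.36 over the 26 at snRNA genes alone, and the P3 bulb value without short RNA genes was 0.22 (n = 89). These are descriptions across regions, which share libraries and local background and are not replicates.

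A second group stood out at genes of small nuclear RNAs (snRNAs), the RNA parts of the spliceosome and related particles. A short RNA gene lay within 1 kb of the summit at 2.74% of all P3 cortex regions. It did so at 38 of the 351 shared with bulb (10.8%, 7.78 to 14.6) and at 20 of the 1765 not shared (1.13%, 0.693 to 1.74). By the annotation, 34 of the 38 were at snRNA genes, 2 at snoRNA genes, 1 at a tRNA gene and 1 at a ribosomal RNA gene. The annotation counts the U3 genes Rnu3a and Rnu3b1 to Rnu3b4 as snRNA genes. Of the 38 regions, 36 were in the P3 bulb list. Both classes held them alike, with 11 of 106 outside the basal ganglia list (10.4%) and 27 of 245 inside it (11.0%). None of the 38 was in the E16 cortex list, which allows a share of up to 7.89% (exact 9.25%). The region at the ribosomal RNA gene was that of Npas1, a neuronal transcription factor gene, whose summit lay 454 bp from it.

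Of 15 genes in the annotation with an Rnu symbol, 10 had a shared region within 1 kb. The annotation held 1003 snRNA genes in all, and 34 shared regions lay at snRNA genes. The Rnu share therefore does not describe snRNA genes at large. Rnu1a1, a gene of the U1 snRNA of the spliceosome, had a fold enrichment of 12.2 in P3 cortex, 6.77 in E16 bulb, 14.7 in P3 bulb and 7.71 in E16 basal ganglia. Its region was the first by −log10 q in the P3 bulb list. Rnu2-10 had 13.6, 6.42, 13.0 and 6.75 in the same order, and Rnu5g, on chromosome 9, had 11.99, 4.87, 8.94 and 2.34. Rnu11, of the minor spliceosome, had 13.8, 5.72, 10.2 and 9.97. Rnu12, also of the minor spliceosome, had 5.59, 3.04 and 9.76 in P3 cortex, E16 bulb and P3 bulb and was not in the basal ganglia list. Rnu3a and Rnu3b1 to Rnu3b4, copies of the U3 RNA of ribosomal RNA processing, had 8.28 to 14.3 in P3 cortex. Rnu6, Rnu1b1, Rnu1b2 and Rnu1b6 had no P3 cortex region within 1 kb, and Rnu7 had one that was not shared with bulb.

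Regions at snRNA genes occurred in clusters, joined here where the next summit lay within 25 kb. On chromosome 11, 6 lay between 87422471 and 87471813, in and around Tex14, at Rnu1a1, Gm22068 and the 4 Rnu3b genes, with P3 cortex fold enrichments of 11.2 to 14.3. That stretch held 7 annotated snRNA genes. Another 5 lay between 101604688 and 101658692 of that chromosome, near Rdm1 and Arl4d, with 3.57 to 13.6. On chromosome 12, 7 lay between 54696427 and 54738960, at 7 of the 7 snRNA genes annotated there, with 9.71 to 24.9. Gm25679 and Gm26444 of this cluster had the highest values of all short RNA regions, 24.9 and 21.0, and were outside the basal ganglia list. The Gm26444 region is the one within Gm2412 named among the strongest. On chromosome 1, 4 lay between 72225986 and 72255526, with 5.72 to 9.30. These 4 clusters held 22 of the 38 regions. Each stretch was drawn from the first to the last region of its cluster, so the number of snRNA genes counted in it depends on the regions. Many of these genes are near-identical copies, and how reads that match several copies were placed is not given in the sources used here, so the value at any 1 copy is uncertain.

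Strength at these regions ran opposite in the P3 cortex and basal ganglia lists. The 26 snRNA regions inside the basal ganglia list had a median fold enrichment of 4.26 in that list (2.34 to 9.97), while the 218 other shared regions there without a short RNA gene had 11.0 (1.57 to 43.9). In P3 cortex the order was the reverse, with a median of 11.2 for the same 26 (5.72 to 15.5) and 4.51 for the 218 (1.75 to 11.6). All of the 10 strongest P3 cortex regions of the shared class inside the basal ganglia list, and 19 of the 20 strongest, were at short RNA genes, and the exception was that of Lmo1. Of the 10 strongest P3 bulb regions 5 were at such genes and among the shared regions. As a share of each list, snRNA genes were within 1 kb of 4.23% of P3 bulb regions, 1.89% of P3 cortex, 1.74% of E16 bulb, 0.217% of E16 basal ganglia and 0.0317% of E16 cortex regions. The last 2 lists are also the longest. In numbers the lists held 31, 40, 29, 32 and 2 such regions.

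**Figure D4:**
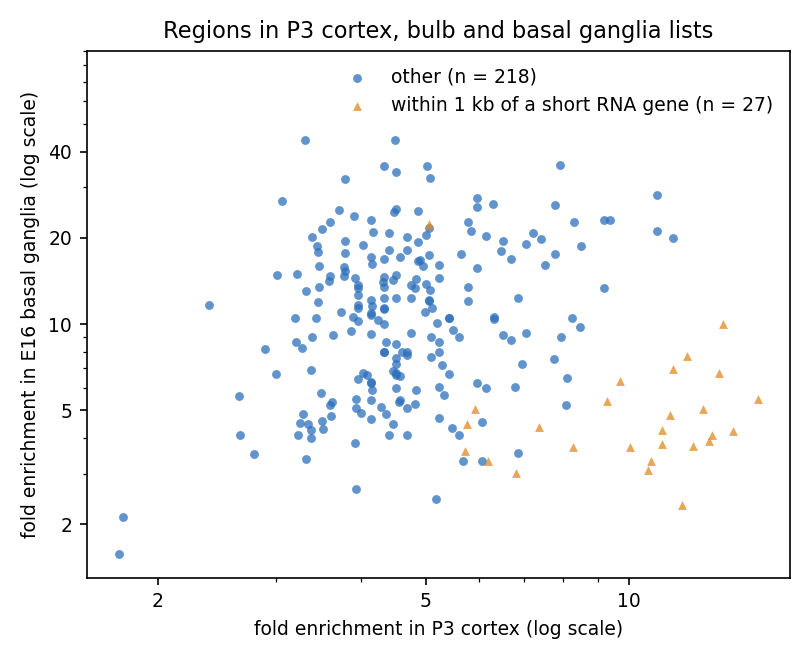
Fold enrichment in P3 cortex (x axis, log scale) and in E16 basal ganglia (y axis, log scale) of the 245 regions shared with bulb and basal ganglia, 1 point a region, with triangles for the 27 within 1 kb of a short RNA gene. The triangles lie at the lower right, apart from 1 at 22.3 on the y axis, the region of Npas1.

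Away from short RNA genes, the regions inside the basal ganglia list included the Dlx loci themselves. The Dlx1 and Dlx2 locus on chromosome 2 held 4, between 71527966 and 71538529, with P3 cortex fold enrichments of 4.33, 3.60, 5.76 and 6.68. The same regions had 5.86, 5.90, 10.6 and 5.74 in E16 bulb, and none was in the P3 bulb list. In basal ganglia they met 3 regions, with 13.4 at the first, 22.8 for 1 region across the second and the third, and 16.9 at the fourth. The summit of the shared one lay 5472 bp from the second region and 56 bp from the third. The Dlx5 and Dlx6 locus on chromosome 6 held 3, between 6861595 and 6871909, with 9.20, 5.02 and 4.33 in P3 cortex. Of these the first and the second were in all 5 lists, with 5.17 and 13.4 in P3 bulb and 23.0 and 35.6 in basal ganglia, and the third was not in the P3 bulb list. The first and second are those whose TAATTA-bearing promoter stretches are printed with the other sequences.

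Genes were grouped by 16 lists with 228 distinct genes, all found in the annotation, and a gene was counted when the summit of a shared region lay in its body extended by 10 kb. Of all protein-coding genes, 1.15% met this, and 6.16% met it with any P3 cortex summit. Of the 228 listed genes 16 did (7.02%). A P3 cortex region not shared with bulb was counted at 34 of the 228 (14.9%), beside 5.21% of all protein-coding genes. The higher share at listed genes was thus not particular to the shared regions. Listed genes were picked for roles in the forebrain and were not matched to all genes for length, so the share is a description. The Dlx family had 4 of 6 (Dlx1, Dlx2, Dlx5 and Dlx6), and 2 of the 6 had a P3 cortex region not shared with bulb. The regions counted for Dlx2 were also counted for Dlx1, and those for Dlx5 also for Dlx6. With an extension of 5 kb the family had 2 of 6 (Dlx1 and Dlx6). The transcription factors of the GABAergic lineage had 8 of 28, with Pbx3, Zeb2 and Npas1 among the additional ones, and 8 of the 28 had a region not shared with bulb. Pbx3, a TALE homeobox gene, had 8.30 in P3 cortex, 12.4 in E16 bulb, 9.35 in P3 bulb and 22.7 in basal ganglia. Zeb2, a zinc-finger homeobox gene that directs interneuron migration, had 4.03, 3.59, 4.86 and 18.95 in the same order and 6.29 in E16 cortex.

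Subtype lists had 1 gene each. Olfactory bulb interneuron genes had 1 of 17, Robo2, a Slit receptor. Its shared region had 10.3 in P3 cortex and 3.94 in E16 bulb and was not in the basal ganglia list. Of the 17, 2 had a P3 cortex region not shared with bulb. Cortical interneuron subtype genes had 1 of 16, Pnoc, the prepronociceptin gene, and striatal projection neuron genes 1 of 16, Ppp1r1b, which encodes a phosphoprotein of striatal dopamine signalling, with 4.99 in P3 cortex at 5.64 kb. Synapse genes had 3 of 29 (10.3%), and 9 of the 29 had a P3 cortex region not shared with bulb. Among them were Grip1 and Nrxn3, a presynaptic neurexin gene inside the basal ganglia list, with 7.04 in P3 cortex. Guidance genes had 1 of 30 (Robo2), while 10 had a P3 cortex region not shared with bulb. TGF-beta and BMP signalling genes had 1 of 18 (Smad2), and survival genes 1 of 18 (Bdnf, 4.15). A P3 cortex region not shared with bulb was at 3 and 1 of these in the same order. The 7 genes of GABA synthesis and transport had 0, as had 20 genes of the cortical glutamatergic lineage, 16 ubiquitous genes, and the markers of oligodendrocytes (7), astrocytes (6), microglia (6) and endothelial and mural cells (6). With 1.15% of all protein-coding genes counted, lists of this size would mostly have 0, so nothing is read from these counts of 0. A region not shared with bulb was counted at 1 GABA synthesis and transport gene, 1 glutamatergic lineage gene and 1 ubiquitous gene, and at none of these markers. Cxcl14, a chemokine gene, had no shared region within 10 kb.

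The 32 regions called in all 5 lists were all inside the basal ganglia list, as the absence of the other class from E16 cortex requires. The 20 highest by summed rank included Auts2, a neurodevelopmental regulator, with 7.91 in P3 cortex, 12.9 in E16 bulb, 3.39 in P3 bulb, 36.0 in basal ganglia and 9.73 in E16 cortex. The region 16.2 kb outside Lmo1, a LIM-only cofactor gene, had 11.6, 12.5, 12.6, 19.96 and 7.44 in the same order. Shtn1, an axon outgrowth gene, had 4.51 in P3 cortex and 34 in basal ganglia. Spon1, which encodes an extracellular matrix protein, had 7.40 and 19.7, and Adk, the adenosine kinase gene, 5.06 and 32.5. Regions far from any protein-coding gene, at 207.0 and 632.4 kb from the corepressor gene Tle4 and 157.1 kb from the transcription factor gene Foxp1, belonged to the same 20. Their P3 cortex values were 4.51, 6.46 and 4.57, beside a median of 4.68 inside the basal ganglia list.

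Position relative to genes separated the classes as the promoter windows had. A protein-coding gene boundary lay within 1 kb of the summit at 12.1% of all P3 cortex regions. It did so at 32 of the 106 outside the basal ganglia list (30.2%, 21.7 to 39.9) and at 21 of the 245 inside it (8.57%, 5.38 to 12.8). Without regions at short RNA genes the shares were 27 of 95 (28.4%) and 16 of 218 (7.34%). With any annotated gene, where the share is 18.2% over the P3 cortex list, they were 41 of 106 (38.7%) and 57 of 245 (23.3%). Without regions at short RNA genes these fell to 30 of 95 (31.6%, 22.4 to 41.9) and 30 of 218 (13.8%). The gene table gives no exons, so regions within a gene are not divided into exonic and intronic.

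**Figure D5:**
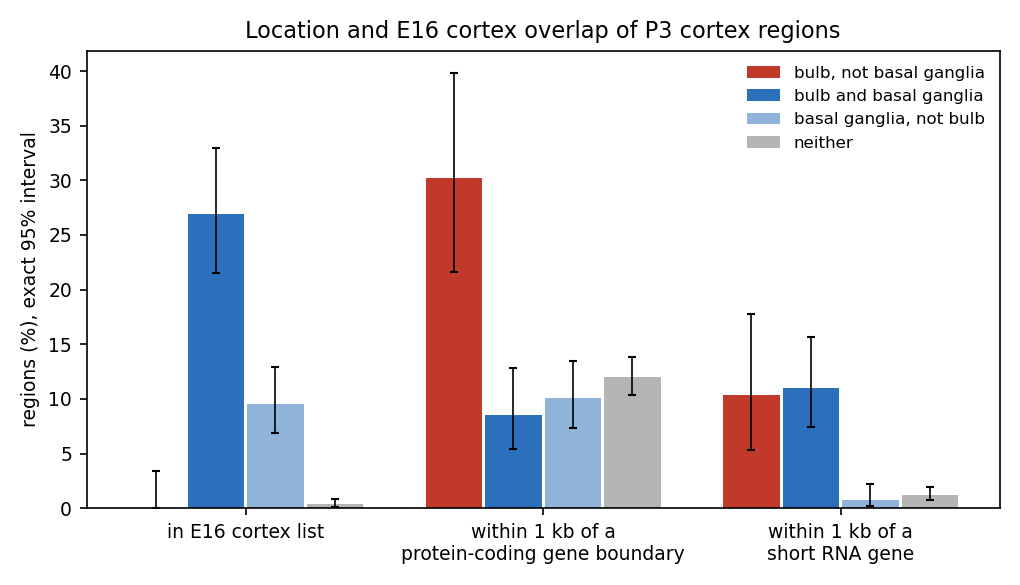
Percent of P3 cortex regions (y axis, bars from 0 with exact 95% intervals for counting error) that were in the E16 cortex list, within 1 kb of a protein-coding gene boundary or within 1 kb of a short RNA gene, by class. Regions shared with bulb but not basal ganglia have 0 in the first group and the tallest bar, 30.2%, in the second.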

How the data were processed

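Each of the 5 Dlx2 libraries had 1 deposited list of called regions, with replicates absent. Trimmomatic, Bowtie2, SAMtools, MACS2 and the build mm10 appear without versions per the submitters' processing notes. Depth, peak threshold and control library were not given in the sources used here. Fold enrichment is the authors' ratio, the significances are the authors' −log10 p-value and −log10 q-value, and the deposited score and summit offset came with them; only fold, −log10 q and summit were used. Fold enrichment was never compared as a level between lists.

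Regions were joined by an overlap of at least 1 bp with Python 3.11.15, pandas 2.3.3 and numpy 2.4.6, intervals came from scipy 1.17.1 and plots from matplotlib 3.10.9. Genes and promoter windows came from RefSeq tables of GRCm38.p6, the same build. The joins were tested on simulated data. A motif search around summits had been planned. No genome sequence was used here, so promoter windows replaced it. The gene at a region is the one holding the summit (protein-coding first), otherwise the nearest protein-coding gene.

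The regions, gene lists and motifs were chosen with earlier results of these data known. Named genes were those at the 15 strongest regions of each class, in all 5 lists (up to 20), at short RNA genes (up to 15), on the gene lists or at the edge of the rule, plus a few preset genes. Promoter genes, further Rnu genes and snRNA clusters were picked after seeing values. Some named genes are not reported here.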

Additional observations from a re-analysis of the deposited data

How the results depend on the processing

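Of the recomputed values, 55 stayed and 16 moved. Counts and medians stayed if within 1.5 times of the main value, and shares if within its counting interval. The basal ganglia list held 69.8% of the regions shared with bulb. That share was 62.6% with summits within 200 bp, 62.8% at a −log10 q of at least 5, 20.98% for the strongest regions of every list at the length of the shortest list and 53.4% without regions over 1 kb. It was 75.4% with the E16 bulb list alone and 61.3% with the P3 bulb list alone, 2 settings added after seeing the data. The number shared was 143 at that equal length and 186 with the P3 bulb list alone, with 30 and 114 inside the basal ganglia list. The share in E16 cortex was 0.699% at that length, where fewer regions enter by construction. Regions outside the basal ganglia list that were in E16 cortex numbered 4 with summits within 200 bp and 35 without regions over 1 kb. The share near any gene boundary rose to 51.9% outside and 37.1% inside the basal ganglia list at 5 kb, and was 8.57% inside it with protein-coding genes only. The motif windows of 50 and 200 bp around summits were not run, since no genome sequence was used here. No paired analysis was possible because each group has 1 library, and for the same reason no replicate could be left out. Unknown depth limits what absence from a list can show.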

Other observations

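The P3 cortex list also held 23 regions outside chromosomes 1 to 19 and X, which the rule left out. The 3 mitochondrial regions had fold enrichments of 1.35 to 1.37, and all 3 overlapped a P3 bulb region. The 19 on the unplaced sequence JH584304 had 1.296 to 1.53 and none overlapped a bulb region. The 1 on chromosome Y had 4.81 and was called in all 5 lists.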
